A study of Drosophila melanogaster with 65 samples.

Results

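The miRNAs of OSS cells, a cultured line of Drosophila melanogaster ovarian somatic cells, were measured after knockdown of a control target or of 1 of 3 genes. Small RNA was sequenced from cells given siRNA against GFP (siGFP, the control), Traffic jam (siTj), Piwi (siPiwi) or Cubitus interruptus (siCi). The 12 small RNA libraries, 3 per knockdown, reached the deposit as 1 value per miRNA arm and knockdown, in RPM (reads scaled to library size). The same 4 knockdowns were also sequenced for long RNA, with 3 libraries each, and the series of 65 samples holds ovary libraries and chromatin maps as well. Traffic jam is a large Maf transcription factor of ovarian somatic cells and an activator of piwi. Piwi is the nuclear protein that silences transposons with piRNAs. Cubitus interruptus is the transcription factor of Hedgehog signalling. OSS cells are a single established line without germ cells, so all 4 groups share its background, and the labels give no further allele or agent.

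The miRNAs were chosen by level alone. With both arms summed, each had to reach 100 RPM in 1 or more of the knockdown groups. Of 214 miRNAs listed in any of the 4 tables, 43 met that minimum, and they carried 99.1% to 99.3% of all miRNA RPM in each group. The members nearest the minimum were miR-137, with a highest value of 102 RPM, and miR-100, with 120 RPM. Just under it lay miR-965, at 97.7 RPM, and miR-986, at 85.0 RPM. Each ratio below compares 2 pooled values, so it has no replicate check, no SD and no test. The depth behind the RPM values is unknown, and so is the total to which they were scaled.

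A miRNA is cut from a hairpin in a longer primary transcript, first by Drosha in the nucleus and then by Dicer-1 in the cytoplasm. The resulting duplex has a 5p and a 3p arm, and usually the strand from one arm is kept by Argonaute-1, where it guides repression of target mRNAs. Many fly miRNAs lie in introns of protein-coding genes or in clusters transcribed together, while mirtrons are short introns that are spliced out and skip Drosha. In the ovary, miRNAs act in follicle cells as well as in germ cells, for example in border cell migration.

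The labels were checked in the long RNA libraries before the miRNAs were compared. These libraries held 9075806 to 54359738 unique sense reads in genes. In its own knockdown, the target of the siRNA stayed under every siGFP value. For tj, the 3 siGFP libraries had 2031, 1105 and 1212 CPM (counts scaled to library size) and the 3 siTj libraries 569, 218 and 594. For piwi the siGFP values were 721, 661 and 902 CPM and the siPiwi values 113, 34.2 and 118. For ci they were 116, 122 and 182 CPM in siGFP and 41.9, 61.6 and 72.4 in siCi. Of the 3, tj passed edgeR's quasi-likelihood test with the replicate number as a block (adjusted p = 0.0198), while piwi did not (adjusted p = 0.0541) and neither did ci (adjusted p = 0.92). Without the block none of the 3 passed. piwi was also low in siTj, at 120, 170 and 313 CPM (adjusted p = 0.0216 with the block). The 7 ovarian somatic markers, among them tj, piwi, armi and the flam piRNA precursor, summed to 4187 to 6671 CPM in siGFP and to 1291 to 2249 in siTj. They did not all go the same way, since Fas3, at a mean of 140.4 CPM in siGFP and 167 in siTj, and zfh1, at 389.99 and 507, had higher means in siTj with overlapping groups. The 7 germline markers summed to 11.6 to 22.1 CPM in siGFP, with nos and osk at or near 0. Libraries siPiwi 2 and siTj 2 stood apart, with 12.4% and 9.27% of unique reads antisense to genes against 4.07% to 5.08% in the others, and their germline marker sums of 132 and 95.3 CPM were the highest of their groups. Whether the pooled small RNA values hold material like those 2 libraries was not tested.

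The share of reads in miRNAs was similar in all groups. Summed miRNA RPM came to 187418 in siGFP, 184836 in siTj, 193209 in siPiwi and 179875 in siCi. The 5 most abundant miRNAs made up between 58.3% and 61.2% of it. Thus the knockdowns were compared on a similar total, and ratios taken as shares of all miRNA RPM called the same number of miRNAs as the RPM ratios.

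The leading miRNA in every group was miR-276a, which in flies acts in olfactory memory. It stood at 36567 RPM in siGFP, 32736 in siTj, 39492 in siPiwi and 32501 in siCi, so its 4 values lay close together. miR-9b followed in siGFP, siPiwi and siCi, at 24599, 29624 and 24565 RPM, but at 16373 RPM in siTj it ranked below bantam and miR-184.

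**Figure D1:**
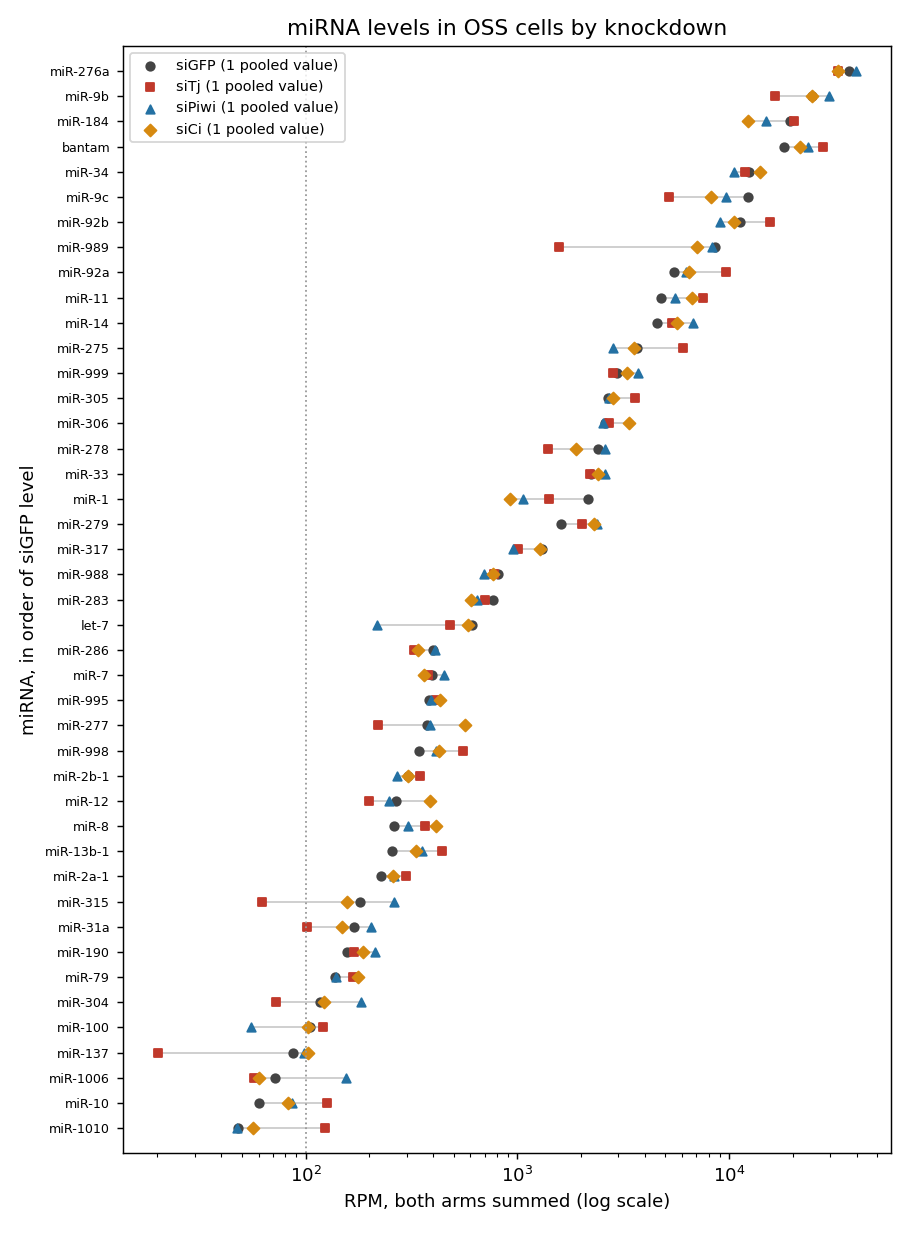
Levels of the 43 miRNAs (rows, in order of siGFP level) in RPM on a log axis, with 1 pooled value per knockdown and a dotted line at the 100 RPM minimum. Most rows are narrow, while miR-989, miR-137 and miR-315 have siTj far to the left and let-7 has siPiwi to the left.

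The growth-promoting miRNA bantam, which represses the cell death gene hid, stood at 18126 RPM in siGFP, 27631 in siTj, 23637 in siPiwi and 21641 in siCi. It was therefore above siGFP in all 3 knockdowns, by 1.52-fold in siTj, 1.30-fold in siPiwi and 1.19-fold in siCi. miR-184, which is needed in the female germline and early embryo, was at 19297 RPM in siGFP and 20163 in siTj, and lower at 14868 in siPiwi and 12200 in siCi. miR-34 varied little, with 12434, 11824, 10551 and 13990 RPM in siGFP, siTj, siPiwi and siCi. miR-34 is known in flies for roles in ageing and in the nervous system.

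Few of the 43 miRNAs differed from siGFP by 2-fold or more, and siTj had the most. In siTj, 2 were at least 2-fold higher (4.65% of the 43) and 4 at least 2-fold lower (9.3%). In siPiwi, 1 was higher (2.33%) and 2 were lower (4.65%), and in siCi none was higher (0.0%) and 1 was lower (2.33%). The miRNAs on the high side, miR-1010 and miR-10 in siTj and miR-1006 in siPiwi, reached 100 RPM only in the group where they were high, so the minimum itself fixed that they differ. With 100 RPM asked of siGFP, 39 miRNAs remained, of which 0 were higher and 3 lower in siTj, and 0 higher and 2 lower in siPiwi. Ratios spread more widely in siTj as well. The median size of the log2 ratio was 0.41 in siTj, 0.25 in siPiwi and 0.24 in siCi, and 25, 38 and 39 of the 43 miRNAs stayed within 1.5-fold of siGFP. The medians themselves were close to 0, at -0.01, 0.11 and 0.08. All 3 comparisons share the siGFP values, so an odd siGFP value would move a miRNA in all of them.

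**Figure D2:**
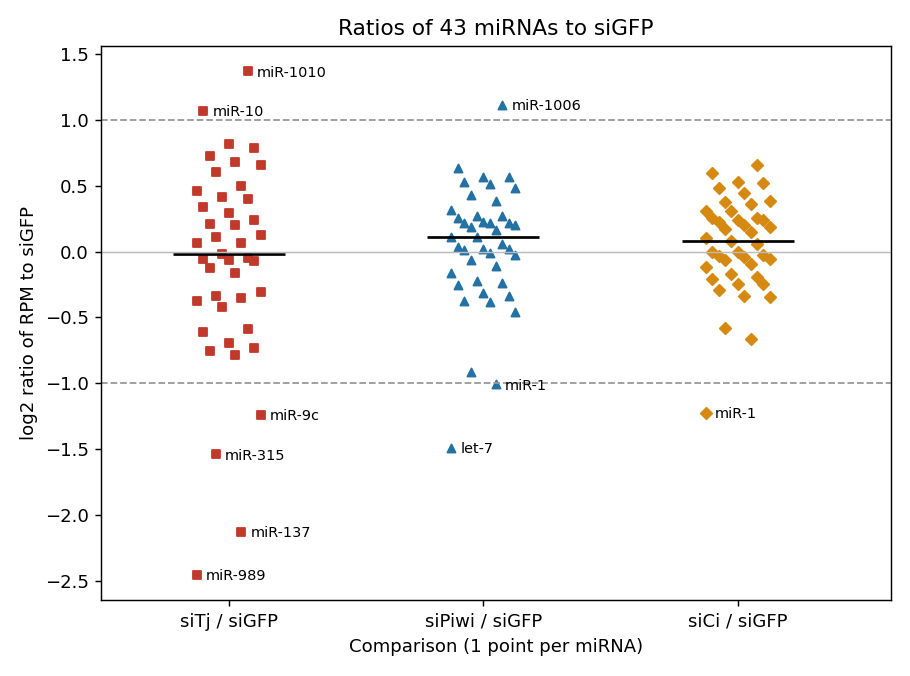
Log2 ratios of the 43 miRNAs to siGFP in the 3 comparisons, 1 point per miRNA, with bars at the medians and dashed lines at 2-fold. The siTj points run from -2.46 for miR-989 to 1.37 for miR-1010, whereas the siPiwi points end at -1.49 for let-7 and the siCi points at -1.22 for miR-1.

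The miRNA furthest below siGFP after Traffic jam knockdown was miR-989, a follicle cell miRNA that is needed for border cell migration. It stood at 8609 RPM in siGFP, 8255 in siPiwi and 7027 in siCi, but at 1569 RPM in siTj. siTj thus stood alone, 5.49-fold below siGFP (log2 ratio -2.46). Both arms were low there, the abundant 3p arm at 1539 RPM against 8486 in siGFP and the 5p arm at 30.0 against 122 RPM. Fewer miR-989-producing cells and less miR-989 per cell cannot be told apart in such bulk values.

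miR-137 showed the same pattern at a lower level. It had 87.7 RPM in siGFP, 98.1 in siPiwi and 102 in siCi, against 20.1 RPM in siTj, which was 4.37-fold below siGFP (log2 ratio -2.13). Again siTj was the single low value among the 4.

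miR-315, a miRNA that activates Wingless signalling when expressed in fly wing tissue, had 181 RPM in siGFP, 261 in siPiwi, 156 in siCi and 62.3 in siTj. Its siTj value was 2.91-fold below siGFP (log2 ratio -1.54), and its siPiwi value was 1.44-fold above.

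miR-9c was the most abundant of the 4 miRNAs past 2-fold on the low side in siTj, and it is encoded together with miR-9b inside the gene grp. Its values were 12233 RPM in siGFP, 5188 in siTj, 9706 in siPiwi and 8173 in siCi. All 3 knockdowns lay below siGFP, and siTj was lowest, at 2.36-fold (log2 ratio -1.24). The miRNA nearest to 2-fold without reaching it, on the low side, was miR-278, which in flies acts in energy balance. It had 2402 RPM in siGFP, 1394 in siTj, 2596 in siPiwi and 1897 in siCi.

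The 2 miRNAs at least 2-fold higher in siTj were scarce ones. miR-1010, a mirtron of the potassium channel partner gene SKIP, had 47.9 RPM in siGFP, 124 in siTj, 47.4 in siPiwi and 56.4 in siCi. The siTj value was 2.59-fold above siGFP, and that excess was in the 3p arm, at 103 against 29.2 RPM, with the 5p arm at 20.7 against 18.7 RPM. miR-10, from the Hox gene region of the Antennapedia complex, had 60.4 RPM in siGFP, 127 in siTj, 86.2 in siPiwi and 82.3 in siCi, a ratio of 2.10 for siTj.

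Among abundant miRNAs above siGFP in siTj, none reached 2-fold. miR-92a, known from neuroblasts, had 5460 RPM in siGFP, 9643 in siTj, 6277 in siPiwi and 6439 in siCi, and its siTj value was 1.77-fold above siGFP. miR-92b stood at 11270 RPM in siGFP, 15533 in siTj, 9057 in siPiwi and 10572 in siCi. miR-11, which limits cell death driven by its own host gene E2f1, had 4770 RPM in siGFP, 7507 in siTj, 5536 in siPiwi and 6652 in siCi. For these 3 miRNAs siTj was the highest of the 4 values.

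After Piwi knockdown the miRNA furthest below siGFP was let-7, the conserved regulator of developmental timing. It had 612 RPM in siGFP, 479 in siTj, 588 in siCi and 218 in siPiwi, so that siPiwi stood 2.81-fold below siGFP (log2 ratio -1.49). Its partner in the same primary transcript, miR-100, had 104 RPM in siGFP, 120 in siTj, 103 in siCi and 55.4 in siPiwi. miR-125, the third miRNA of that transcript, was below the 100 RPM minimum, with 61.6, 67.7, 64.4 and 33.7 RPM in siGFP, siTj, siCi and siPiwi. All 3 miRNAs of the let-7 complex therefore had their lowest value in siPiwi.

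miR-1, the muscle miRNA, had 2146 RPM in siGFP, 1405 in siTj, 1068 in siPiwi and 918 in siCi. It was lower than siGFP in every knockdown, by 1.53-fold, 2.01-fold and 2.34-fold, and was the only one of the 43 past 2-fold in siCi. The siPiwi ratio lay on the 2-fold line, with a log2 value of -1.01 that becomes -0.999, just inside the line, when 10 RPM is added to each value. miR-133, another muscle miRNA, was scarce, at 8.54 RPM in siGFP, 4.91 in siTj, 17.2 in siPiwi and 9.74 in siCi, and did not share the order of miR-1. In long RNA the 3 muscle markers Mhc, Act57B and Tm2, all detected in each group, summed to 8.91 to 37.5 CPM in siGFP, 114 to 196 in siTj, 10.3 to 77.7 in siPiwi and 24.7 to 45.3 in siCi. Only Act57B had all 3 siTj libraries above all siGFP libraries, as did 8.5% of all genes, while Mhc and Tm2 overlapped. In siTj 3 the sum was nearly all Act57B, at 192 CPM beside 3.41 for Mhc and 0.976 for Tm2. The part of these markers in the miR-1 values was not tested.

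The miRNA past 2-fold on the high side in siPiwi was miR-1006, a mirtron of the proton pump subunit gene VhaSFD. It had 71.9 RPM in siGFP, 56.9 in siTj, 60.6 in siCi and 156 in siPiwi, a ratio of 2.17. Nearly all of it was the 3p arm in each group.

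The larger arm of a hairpin was mostly the same in all groups. In siGFP the 3p arm was the larger in 24 of the 43 miRNAs and the 5p arm in 19, and the larger arm differed from siGFP in 2 miRNAs in siTj, 0 in siPiwi and 1 in siCi. Many of the 43 had nearly all their RPM in 1 arm, so this count does not show smaller shifts. With arms taken separately, 54 arms reached 100 RPM. In siTj, 1 of them was at least 2-fold higher (1.85%) and 5 were lower (9.26%). In siPiwi 1 was higher (1.85%) and 2 were lower (3.7%), and in siCi 0 were higher (0.0%) and 1 was lower (1.85%). The arms on the high side, miR-1010 3p in siTj and miR-1006 3p in siPiwi, reached 100 RPM only in that knockdown, and the 5p arm of miR-989, low in siTj, reached it only in siGFP. For these 3 arms the minimum took part in fixing the difference.

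In 13 miRNAs both arms were at 100 RPM or more in a group. Their 2 arms lay on the same side of siGFP in 9 of the 13 in siTj, 7 in siPiwi and 6 in siCi. Among the 13, miR-278 shifted most. Its 3p arm made up 21.8% of its RPM in siGFP, 51.4% in siTj, 23.9% in siPiwi and 42.1% in siCi. The 5p arm went with the shift, at 1878 RPM in siGFP, 677 in siTj, 1976 in siPiwi and 1099 in siCi. The 3p arm had 525, 717, 620 and 798 RPM in the same order and was thus highest in siCi. The summed ratio of miR-278 in siTj, 1.72-fold below siGFP, combines a 2.77-fold lower 5p arm beside a 1.37-fold higher 3p arm.

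Smaller shifts were seen in 4 other miRNAs. The 3p share of miR-306 was 42.9% in siGFP and lower in all knockdowns, at 33.9% in siTj, 28.3% in siPiwi and 33.7% in siCi. That of miR-317 was 28.4% in siGFP, 32.2% in siTj, 42.6% in siPiwi and 29.6% in siCi, so siPiwi stood apart. miR-305, whose arms are about equal, went from 46.4% in siGFP to 56.2% in siTj, 48.0% in siPiwi and 54.7% in siCi. For miR-92a the 3p share was 83.3% in siGFP, 86.7% in siTj, 90.3% in siPiwi and 84.7% in siCi.

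**Figure D3:**
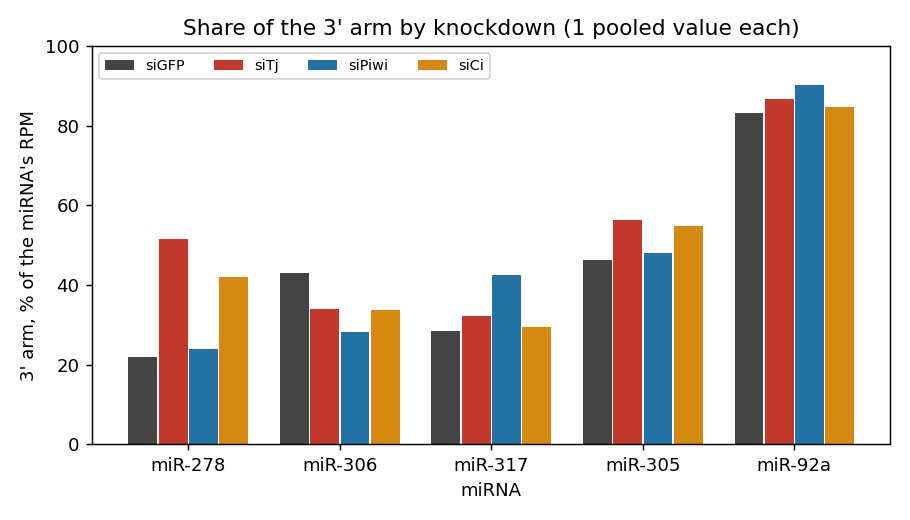
Share of the 3p arm in the RPM of the 5 miRNAs whose share moved most, among those with both arms at 100 RPM or more, by knockdown (1 pooled value per bar, axis from 0 to 100%). The miR-278 bars for siTj, at 51.4%, and siCi, at 42.1%, stand above siGFP at 21.8%.

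Over all miRNAs, the 3p arms made up 66.1% of miRNA RPM in siGFP, 67.0% in siPiwi and 66.1% in siCi, but 74.7% in siTj. Most of the deficit in 5p reads lay in miR-9b and miR-9c, whose 5p arms summed to 36722 RPM in siGFP, 21496 in siTj, 39182 in siPiwi and 32644 in siCi. The 5p arms of all other miRNAs summed to 26758, 25221, 24602 and 28247 RPM in those groups. Without these 2 miRNAs the 4 sums of 5p arms thus lay close together.

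Neighbouring miRNAs can share a primary transcript, so the 18 members in 7 clusters, with gaps of at most 10 kb, were set side by side. Strand was not used, because the reference table did not give it for these loci. In siTj all members of a cluster lay on the same side of siGFP in 5 of the 7 clusters, against 2 each in siPiwi and siCi. The cluster in grp was split in siTj. There miR-9c and miR-9b were lower, at log2 ratios of -1.24 and -0.59, while miR-306 and miR-79 were not, at 0.06 and 0.29. That spread of 1.53 on the log2 scale was the largest within any of the 7 clusters in the 3 comparisons.

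The pair in jigr1, miR-92a and miR-92b, was higher in siTj, at 0.82 and 0.46, and so was the pair in E2f1, miR-11 and miR-998, at 0.65 and 0.68. The pair miR-275 and miR-305 stood at 0.73 and 0.41 in siTj. On the low side in siTj were the 3 miRNAs in the Golgi protein gene Gmap, with miR-283 at -0.13, miR-12 at -0.42 and miR-304 at -0.69. The cluster of miR-277, miR-317 and miR-34 was also low there, at -0.76, -0.38 and -0.07, though only miR-277 was past 1.5-fold.

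A cluster below the 100 RPM minimum behaved as a block in siTj. It holds miR-959 to miR-964, which are known from the testis, and its 6 miRNAs summed to 154 RPM in siGFP, 56.5 in siTj, 159 in siPiwi and 253 in siCi. All 6 were at least 2-fold lower in siTj, with log2 ratios from -2.62 to -1.01, and all 6 were above siGFP in siCi, from 0.07 to 0.92. With no minimum, 22 of 197 listed miRNAs (11.2%) were at least 2-fold lower in siTj and 36 at least 2-fold higher. The most abundant of the 6 in siGFP, miR-960 and miR-964, had 43.9 and 42.3 RPM there, 15.4 and 14.9 in siTj, and 70.1 and 80.1 in siCi. The other testis cluster, miR-972 to miR-979, summed to 130 RPM in siGFP, 141 in siTj, 196 in siPiwi and 182 in siCi. Its 8 miRNAs were split in siTj, with 4 above and 4 below siGFP, and all 8 were above siGFP in siPiwi and in siCi. These values are low, their counting error is unknown, and the testis miRNAs were set apart by their list and not by the 100 RPM rule.

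**Figure D4:**
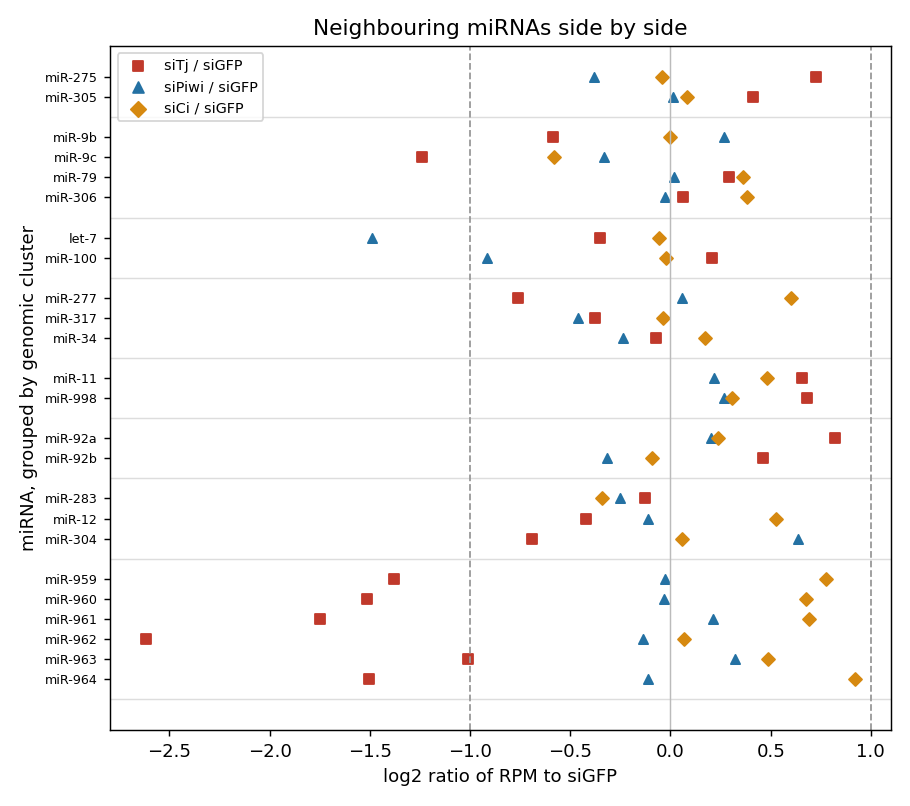
Log2 ratios to siGFP for the miRNAs of 7 genomic clusters at 100 RPM or more and, in the lowest block, of the scarce cluster miR-959 to miR-964, with dashed lines at 2-fold. The 6 siTj points of the lowest block lie at -1.01 or below, whereas miR-9b and miR-9c lie left of miR-79 and miR-306.

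Families chosen by function were described by their counts. The K-box miRNAs, named for the short 3' UTR element they bind, had 4 of 8 listed members at the minimum, which were miR-11, miR-2b-1, miR-13b-1 and miR-2a-1. All 4 were above siGFP in siTj, as were 21 of the 43, with a median log2 ratio of 0.53 beside -0.01 for the 43, and none was past 2-fold. In siPiwi and in siCi 3 of the 4 were above siGFP, with medians of 0.21 and 0.29 beside 0.11 and 0.08 for the 43. miR-13b-1 had 255 RPM in siGFP, 439 in siTj, 356 in siPiwi and 333 in siCi, the widest of the 4 in siTj. The scarce family members miR-6-1 and miR-6-2 had 3p values within 0.01 RPM of each other in every group, so their reads cannot be told apart.

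Of 17 names listed for follicle cells or ovary, 10 were at the minimum, and 6 of these were above siGFP in siTj and 4 below, with miR-989 the only one past 2-fold. miR-279, which restrains JAK/STAT signalling around border cells, had 1601 RPM in siGFP, 2028 in siTj, 2369 in siPiwi and 2303 in siCi, and was above siGFP in all knockdowns. miR-14, linked to cell survival and ecdysone signalling, did likewise, with 4550, 5386, 6751 and 5639 RPM in siGFP, siTj, siPiwi and siCi. miR-310, miR-311 and miR-312, scarce members of 1 cluster, had 15.9, 5.89 and 9.60 RPM in siGFP and 37.2, 16.6 and 23.0 RPM in siTj. They were also above siGFP in siPiwi, at 22.7, 7.81 and 12.3 RPM, and in siCi, at 24.3, 8.18 and 13.3 RPM. These values are far below the minimum and their counting error is unknown.

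Of 5 ecdysone-linked miRNAs at the minimum, 3 were above and 2 below siGFP in siTj. Among them miR-8, a growth regulator of the fat body, had 260 RPM in siGFP, 367 in siTj, 304.4 in siPiwi and 411 in siCi. Of the 12 listed mirtrons, the 2 at the minimum were miR-1010 and miR-1006, which reached it only in siTj and only in siPiwi, so their ratios there follow in part from the minimum. The nervous system miRNAs miR-124 and miR-9a had at most 1.27 and 47.9 RPM, both under the minimum. The early embryonic miR-309 cluster was represented by miR-286, with 401 RPM in siGFP, 323 in siTj, 407 in siPiwi and 339 in siCi.

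Shares of all miRNA RPM placed these cells beside 6 wild-type ovary libraries of the series, each the labelled wild-type partner of 1 of the lines FITS, FlamBG, FlamKG, FPSE1, FPSE2A and FPSE2B. Whole ovaries hold germ cells as well as somatic cells. In 18 of the 43 miRNAs all 4 OSS values lay above the ovary range, in 7 below it, and in 18 they overlapped. The 43 were chosen by their level in OSS cells, which favours the high side in these counts. miRNAs of the ovary that are scarce in OSS cells, such as miR-281-1 and miR-125, were left out of them. miR-9b was at 8.86% to 15.3% in OSS cells and 1.41% to 3.71% in ovaries, and miR-8 at 0.139% to 0.228% against 4.11% to 10.6%. For miR-989 the siGFP share of 4.59% and the siTj share of 0.849% were both within the ovary range of 0.783% to 14.2%. The ovary median was 10.3%, and the siTj share lay near the low end of the range.

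The miRNA loci were then located relative to annotated genes. All 43 matched a locus of the reference table. Of these, 22 lay inside a protein-coding gene, 16 only inside another annotated gene, mostly a long noncoding RNA, and 5 inside none. Strand was not used here either. A gene called a host below overlaps the miRNA by position and may be transcribed from the other strand. These genes were read in long RNA, where replicates allow a test. Unique sense reads were counted over the full gene, and 24 of 30 host genes passed the filter on low counts. Those counts cover the whole host gene, so they do not isolate the primary miRNA.

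No host gene passed edgeR's quasi-likelihood test in any of the 3 comparisons, with or without the replicate number as a block, and none passed in DESeq2. In simulated counts for siTj, the fit without the block found 8% of planted 2-fold changes and 44% of 4-fold changes. With the block it found 22% and 90%. Host changes of about 2-fold would thus mostly be missed. The changes were planted only in genes above a set mean level. Scarce hosts, such as the noncoding RNAs CR45388 and CR42651, lie below that level, so the shares found do not apply to them. Without the block, 1 of the 24 had an unadjusted p under 0.05 in siTj, 0 in siPiwi and 1 in siCi, and with the block 5, 0 and 2 did. For siTj these are 4.17% and 20.8% of the hosts, beside 7.35% and 19.9% of all 10724 genes tested. Across all genes tested, siTj had 0% called higher and 0.0466% called lower without the block, and 2.06% and 1.45% with it. In siPiwi and siCi 0% were called in either direction.

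**Figure D5:**
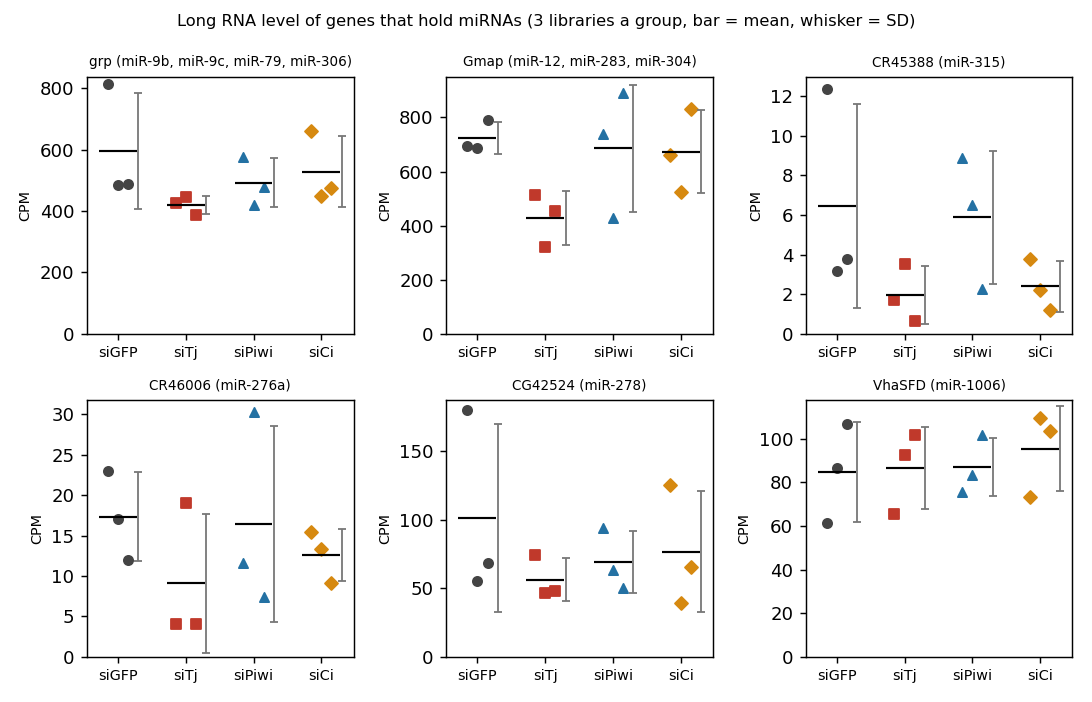
Long RNA level in CPM of 6 genes that hold miRNAs, 1 point per library, 3 libraries a group, with the mean as a bar and the SD as a whisker. In siTj the Gmap and grp points lie below all siGFP points, while CR46006 has 1 siTj library among the siGFP values.

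Several host genes of miRNAs that lay below siGFP in siTj also had a lower mean CPM there, though none passed the test with all 12 libraries. Gmap, host of miR-12, miR-283 and miR-304, had 695, 688 and 791 CPM in siGFP and 511.8, 320 and 453 in siTj, so the groups did not overlap. It stood at -0.76 on the log2 scale (SE 0.345, edgeR adjusted p = 0.672) and -0.79 with the block (SE 0.222, adjusted p = 0.0768). Of all genes, 6.5% had all 3 siTj libraries below all 3 of siGFP and 8.5% had them above. grp, which encodes the checkpoint kinase Chk1, had 815, 483 and 489 CPM in siGFP and 426, 446 and 387 in siTj. Those groups did not overlap either (log2 difference -0.50, SE 0.313, edgeR adjusted p = 0.782). grp holds miR-9b and miR-9c, but also miR-306 and miR-79, which lay above siGFP in siTj.

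CR45388, a long noncoding RNA over the miR-315 locus, had 12.4, 3.20 and 3.77 CPM in siGFP and 1.71, 3.55 and 0.627 in siTj. Its siTj 2 value lay among the siGFP values. CR45912, antisense to CR45388, had 0.99, 0.622 and 0.226 CPM in siGFP and 0.228, 3.46 and 0.906 in siTj. CR46006, which holds miR-276a, had 23.0, 17.1 and 11.98 CPM in siGFP and 4.11, 19.02 and 4.11 in siTj, again with siTj 2 as the high library. CG42524, which holds miR-278, had 180, 55.5 and 68.3 CPM in siGFP and 74.4, 46.2 and 48.4 in siTj.

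CR45388, CR46006 and CG42524, and no other of the 24, passed the test when the 2 libraries with high antisense shares were left out and the replicate number kept as a block. CR46006 fell by 2.06 on the log2 scale (SE 0.349, edgeR adjusted p = 0.00698), CR45388 had a log2 value of -2.64 (SE 0.551, adjusted p = 0.019) and CG42524 one of -1.003 (SE 0.226, adjusted p = 0.0265). In that fit 4.37% of all genes were called lower and 3.1% higher in siTj. It was chosen after the values were seen, and it left out siTj 2, the high siTj library of CR45388 and CR46006. With siTj 2 alone left out and the block kept, 0 hosts passed. With all 12 libraries the block gave adjusted p-values of 0.189, 0.167 and 0.19 for the 3 hosts. The mature miRNAs of all 3 lay below siGFP in siTj, with miR-276a at 0.895 of siGFP, miR-278 1.72-fold lower and miR-315 2.91-fold lower. Those are pooled small RNA values, while the host fit left out siTj 2, so the sizes are not compared.

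Hosts of the miRNAs above siGFP did not pass the test either. SKIP, which holds miR-1010, had 365, 234 and 177 CPM in siGFP and 441, 265 and 231 in siTj, with overlapping groups (log2 difference 0.27, SE 0.447, edgeR adjusted p = 0.847). VhaSFD, which holds miR-1006, had 61.1, 86.7 and 107 CPM in siGFP and 75.7, 83.3 and 101 in siPiwi (log2 fold change 0.03, SE 0.308, edgeR adjusted p = 1.00). CR42651, over miR-10, was near 0 in siGFP at 0, 0.277 and 0.126 CPM and had 0, 4.84 and 0.627 CPM in siTj, so that a single library carried its fold. CR45917 over miR-92b was likewise scarce, at 0, 0.121 and 0.428 CPM in siGFP and 0.742, 0.675 and 0.836 in siTj. Its groups did not overlap, and 8.5% of all genes had siTj above siGFP in this way. Other hosts went against their miRNAs. jigr1, which holds miR-92a and miR-92b, had 197, 119 and 155 CPM in siGFP and 155, 55.0 and 227 in siTj (log2 difference -0.11, SE 0.553, edgeR adjusted p = 0.954). CR43857, which holds miR-275, and Cdk2, which holds miR-995, had log2 differences of -0.32 and -0.66 in siTj, with overlapping groups. By contrast, rhea, which encodes talin and holds miR-190, lay on the same side as its miRNA. rhea had 1255, 1272 and 548 CPM in siGFP and 1743, 2454 and 771 in siTj (log2 difference with the block 0.65, SE 0.21, edgeR adjusted p = 0.12). miR-190 had 157 RPM in siGFP and 169 in siTj.

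E2f1, host of miR-11 and miR-998, was high in a single siCi library, at 3853 CPM against 488 and 429 in the other 2 and 363 to 613 in siGFP. Its log2 fold change in siCi was 1.75 (SE 0.739, edgeR adjusted p = 1.00), and -0.057 without that library. miR-11 was 1.39-fold above siGFP in siCi and 1.57-fold above it in siTj, where E2f1 was at 604, 322 and 615 CPM. miR-989 lies in no annotated gene of the table, and the let-7 complex transcript was not analysed here.

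Of 10 genes of small RNA processing, 7 of the miRNA branch and 3 of the siRNA branch (Dcr-2, AGO2 and r2d2), 0 were called by edgeR in any knockdown, with or without the block. Without the block, Dcr-2 in siTj was the only one of the 10 with an unadjusted p under 0.05. With the block, Dcr-2 and loqs had one, both in siTj. Of all genes tested, 7.35% had one in siTj without the block and 19.9% with it. Dcr-2, the Dicer of siRNAs, had 619, 417 and 348 CPM in siGFP and 297, 172 and 276 in siTj, which did not overlap (edgeR adjusted p = 0.677, and 0.118 with the block). loqs, the partner of Dicer-1, had 37.4, 34.7 and 40.4 CPM in siGFP and 30.1, 9.01 and 18.7 in siTj. Those groups did not overlap either (edgeR adjusted p = 0.77, and 0.147 with the block). Of all genes, 6.5% had all 3 siTj libraries below all 3 of siGFP. In siCi loqs had 18.3, 20.6 and 31.5 CPM, also below every siGFP value. The share of all genes that did so in siCi was not counted. drosha, pasha, Dcr-1, AGO1 and gw overlapped between siTj and siGFP.

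The Traffic jam protein was mapped by chromatin immunoprecipitation in OSS cells, and the deposited list of 1987 peaks, each 500 bp wide, was set against the miRNA loci. Of the 43 loci, 4 lay within 1 kb of a peak (9.30%), beside 15 of all 262 annotated miRNA loci (5.73%), and 12 within 5 kb (27.9% beside 16.03%). The 4 nearest were mir-92a at 308 bp, mir-92b at 366 bp, mir-279 at 698 bp and mir-275 at 969 bp. All 4 were above siGFP in siTj, as were 8 of the 12 within 5 kb and 21 of all 43, while miR-989, miR-317, miR-33 and miR-1006 of the 12 were below. The peak by mir-92a spans chr3R:25645699-25646198 and that by mir-92b chr3R:25651863-25652362 in the authors' coordinates. mir-305 had its nearest peak at 1146 bp, the bantam locus at 1497 bp, and mir-989 at 1721 bp, at chr2R:14147245-14147744. Of the other miRNAs past 2-fold in siTj, mir-10 lay 10955 bp, mir-9c 11205 bp, mir-137 31122 bp, mir-1010 32190 bp and mir-315 36328 bp from a peak. Being near a peak is a description of position and was not tested against the ratios.

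H3K4me3, a histone mark of active gene starts, was mapped by Cut&Run with 1 library each for siGFP and siTj and 2 for untreated cells. The siTj list held 3134 summits against 6255 in siGFP and 6384 and 5949 in untreated cells, so fewer loci can lie near a summit in siTj. Of the 43 loci, 15 had a summit within 5 kb in siGFP and 7 in siTj, beside 101 and 59 of the 262. For mir-989 the nearest summit was 1225 bp away in siGFP, 1231 and 1219 bp in untreated cells and 7328 bp in siTj. At mir-14, whose miRNA was 1.18-fold above siGFP in siTj, the nearest summit was 3 bp away in siGFP and 23862 bp in siTj. With 1 library each, the summit at either locus has no replicate check.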

How the data were processed

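Small RNA, long RNA and chromatin of OSS cells were measured. The submitters' processing notes name MACS2, Bowtie2, FastQC and DESeq2 but neither their roles nor their versions. Per the file headers, the deposited OSS small RNA tables hold RPM per arm, 1 pooled value per knockdown, and the ovary tables hold RPM per library. How values were pooled and which total scaled them is unstated in the labels and headers, so depth is unknown and a design that expected counts could not be used. The deposited long RNA tables hold counts of unique reads per gene. Cut&Run summits carry the authors' −log10 q, which was not used, and the Traffic jam list holds positions only. The build is not named. Of 12335 genes matched by symbol, 89.9% had both ends within 10 bases of those in the Release 6 reference table, so peak coordinates were taken to be on that build.

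RPM of both arms were summed and divided by siGFP, with 2-fold as the call. Long RNA counts were tested with edgeR 4.0.16 in R 4.3.3 (filterByExpr, TMM, all 12 OSS libraries in 1 fit, Benjamini-Hochberg over all genes, threshold 0.05), checked on simulated data, with DESeq2 1.42.0 as an alternative. Same-numbered libraries deviated together in all 18 pairs (r from 0.248 to 0.900, each above 0.1), so the numbers were taken to pair the samples and a fit with that block was set beside the other. Whether replicates were separate cultures is unstated, so p-values measure a spread that may be technical. Named are the 10 most abundant miRNAs in siGFP, every miRNA past 2-fold, examples by level from each list, the 5 largest arm shifts, and host genes. Other miRNAs and genes were chosen after their values were seen, and the pathway genes were chosen after the files were at hand. Members and lists were chosen with earlier results of these data known. Seed families were not computed, since no miRNA sequences were used here. The number of columns from samples outside the series was 0. Positions came from Python 3.11.15 with pandas 2.3.3.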

Additional observations from a re-analysis of the deposited data

How the results depend on the processing

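Directions of the named miRNA ratios past 2-fold held under every scaling tried. Totals and median ratios were so alike across groups that no scaling tried could have turned them, so this is no check of the values. Shares of all miRNA RPM and median-centred ratios left the counts past 2-fold within 1.5 times. The counts depend on the level minimum and the fold. In siTj 6 miRNAs were past 2-fold, against 58 with no minimum, 20 at 10 RPM (added after seeing the data), 2 at 1000 RPM, 3 with 100 RPM asked of siGFP, and 18 at 1.5-fold. In siPiwi the count was 3, against 30 with no minimum, 5 at 10 RPM, 1 at 1000 RPM and 5 at 1.5-fold. In siCi it was 1, against 37 with no minimum and 4 at 1.5-fold. The split of higher against lower also moved: in siTj it was 2 to 4, against 36 to 22 with no minimum, 10 to 10 at 10 RPM and 0 to 3 with 100 RPM asked of siGFP, and in siPiwi 1 to 2, against 25 to 5, 3 to 2 and 0 to 2. With 10 RPM added to each value, miR-10 in siTj had a log2 ratio of 0.96 and miR-1 in siPiwi one of -0.999. Within 5 kb in place of 1 kb, loci near a Traffic jam peak numbered 12 in place of 4, and those near an H3K4me3 summit 17 and 14 in untreated cells in place of 4 and 2, 15 in siGFP in place of 2 and 7 in siTj in place of 0. No replicate could be left out of the pooled miRNA values. For host genes the replicate block gave 0 calls in each comparison, as did every fit that left out 1 library. Leaving out siPiwi 2 and siTj 2 together, with the block, gave 3 calls in siTj (chosen after seeing the data). Some host fold changes that passed no test changed sign: VhaSFD in siPiwi had a log2 value of -0.22 without the filter and ranged from -0.29 to 0.067 when 1 library was left out. With the block it was -0.12 or -0.10 without siGFP 1 or 2, and -0.27 or -0.10 without siPiwi 1 or 3. CR45912 in siTj was -0.062 without siPiwi 2 and siTj 2 and ranged from -0.15 to 1.69 with 1 library left out, and with the block it was -0.15 and -0.019 without siGFP 2 or 3. SKIP in siTj ranged from -0.20 to 0.45, and E2f1 in siCi from -0.057, without siCi 1, to 2.07. The cause of these changes was not tested.

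The main limits are that each miRNA value is a single pooled number of unknown depth, that low miRNAs have an unknown counting error, and that each host gene test used 3 long RNA libraries a group.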
